A study of Mus musculus with 6 samples.

Results

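The 49 genes described here act in RNA polymerase I transcription and in ribosome biogenesis. They were taken as a list of gene symbols, mapped to the deposited gene IDs with the GENCODE M21 annotation of mouse assembly GRCm38, and sorted by the step in which their proteins work. All 49 have 1 ID among the 54232 listed for each library, and all 49 are among the 16150 genes with enough counts to be tested. Their lowest count in any library was 44.

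RNA was sequenced from fetal liver cells of C57/B6 mouse embryos at stage E13.5, after cells bearing Ter-119, an antigen that red cells acquire as they mature, had been removed. The 30 h group holds 3 libraries of these cells after culture in medium with erythropoietin (EPO), the hormone that drives red cell production. DMSO was added at 24 h, for the last 6 h, as the solvent control for Z-VAD-FMK, a caspase inhibitor. None of the 6 libraries was from inhibitor-treated cells. The day 0 group holds 3 libraries of the purified, uncultured cells. The 30 h libraries therefore differ from those of day 0 in time, in culture and in DMSO at once, and these cannot be told apart. Nothing in the labels says that replicates came from separate animals or cultures, so the p-values reflect nothing beyond the spread among these samples, which may be technical.

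Ribosome production starts in the nucleolus, where RNA polymerase I copies the repeated rRNA genes into a long precursor. Small nucleolar ribonucleoproteins (snoRNPs) guide methylation and pseudouridylation of that precursor, and large assembly complexes cut, fold and load it with ribosomal proteins to give the small and the large subunit. Fetal liver is the main site of red cell formation at this stage, and maturing erythroblasts shrink, condense their nucleus and finally expel it. The transcripts measured here are those of the protein machinery. The rRNA itself was not followed: the IDs of the 2 transcripts annotated on the rRNA repeat, Gm42418 and AY036118, had 0 counts in all 6 libraries, which allows up to 3 counts in each.

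Library totals were 24154481, 19241780 and 19391388 counts at 30 h, and 29949173, 29278777 and 27754279 counts at day 0. The biological coefficient of variation was 20.5% within the 30 h group and 5.28% within day 0. Replicates differed by more than sampling noise, and 30 h replicate 3 stood apart on raw counts, with a chi-square value of 88.6 and 48.8 per degree of freedom against the other 30 h replicates, which had 11 between them. All 9 erythroid markers were higher at 30 h, with summed levels of 16649 to 20312 CPM at 30 h and of 1143 to 1224 CPM at day 0 (CPM, counts per 1000000 of the scaled library). All 10 hepatoblast markers (794 to 2312 CPM at 30 h and 13605 to 15375 CPM at day 0), all 8 endothelial markers (36.7 to 47.4 against 225 to 261 CPM) and 7 of 8 mesenchymal markers (35.4 to 93.1 against 1532 to 1953 CPM) were lower. The lists of macrophage markers (3 higher and 2 lower of 8; 152 to 231 against 207 to 230 CPM), granulocyte and mast cell markers (3 and 3 of 8; 3662 to 5683 against 3175 to 3283 CPM), megakaryocyte markers (1 and 3 of 6; 560 to 955 against 533 to 631 CPM) and B cell markers (0 and 2 of 5; 12.1 to 15.6 against 19.7 to 21.2 CPM) were mixed or small. Of these markers only Stab2, in 30 h replicate 1, and Emcn, in 30 h replicate 2, were at 0 in a library. The part of this shift in cell types in the results below was not tested. In bulk samples fewer cells of a type and less RNA per cell cannot be told apart.

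Most transcripts of the machinery were lower at 30 h than at day 0. Of the 49 genes, 40 were lower and 3 higher at an adjusted p under 0.05 (edgeR quasi-likelihood test, Benjamini-Hochberg over all genes tested), and 6 were not called. Across all genes tested, 40.1% were lower and 34.4% higher. The median log2 change was -0.99 for the 49 genes and -0.09 for all genes tested. At least a 2-fold fall was estimated for 24 of the lower genes and at least a 4-fold fall for 6. The shares of all genes tested with falls of these sizes were not counted. The 30 h libraries all lay below the day 0 libraries for 42 of the 49, against 43.4% of all genes tested, and all above them for 4, against 36.3% of all genes tested. Only Nhp2, Nop10 and Mrto4 had groups that overlapped.

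As shares of library totals, a scale on which the median log2 change of all genes tested was -0.58, the 49 genes were lower too. They took 0.530%, 0.510% and 0.472% of all counts in the 30 h libraries, against 1.32%, 1.33% and 1.38% at day 0. The means were 0.504% ± 0.0293 at 30 h and 1.34% ± 0.0336 at day 0 (SD, n = 3 each). The groups did not overlap, and without Ncl and Npm1, which held the most counts, the shares were 0.384% ± 0.0145 at 30 h and 1.03% ± 0.0216 at day 0. Without 30 h replicate 3 the test called 43 of the 49 lower, against 41.7% of the genes tested in that fit.

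**Figure D1:**
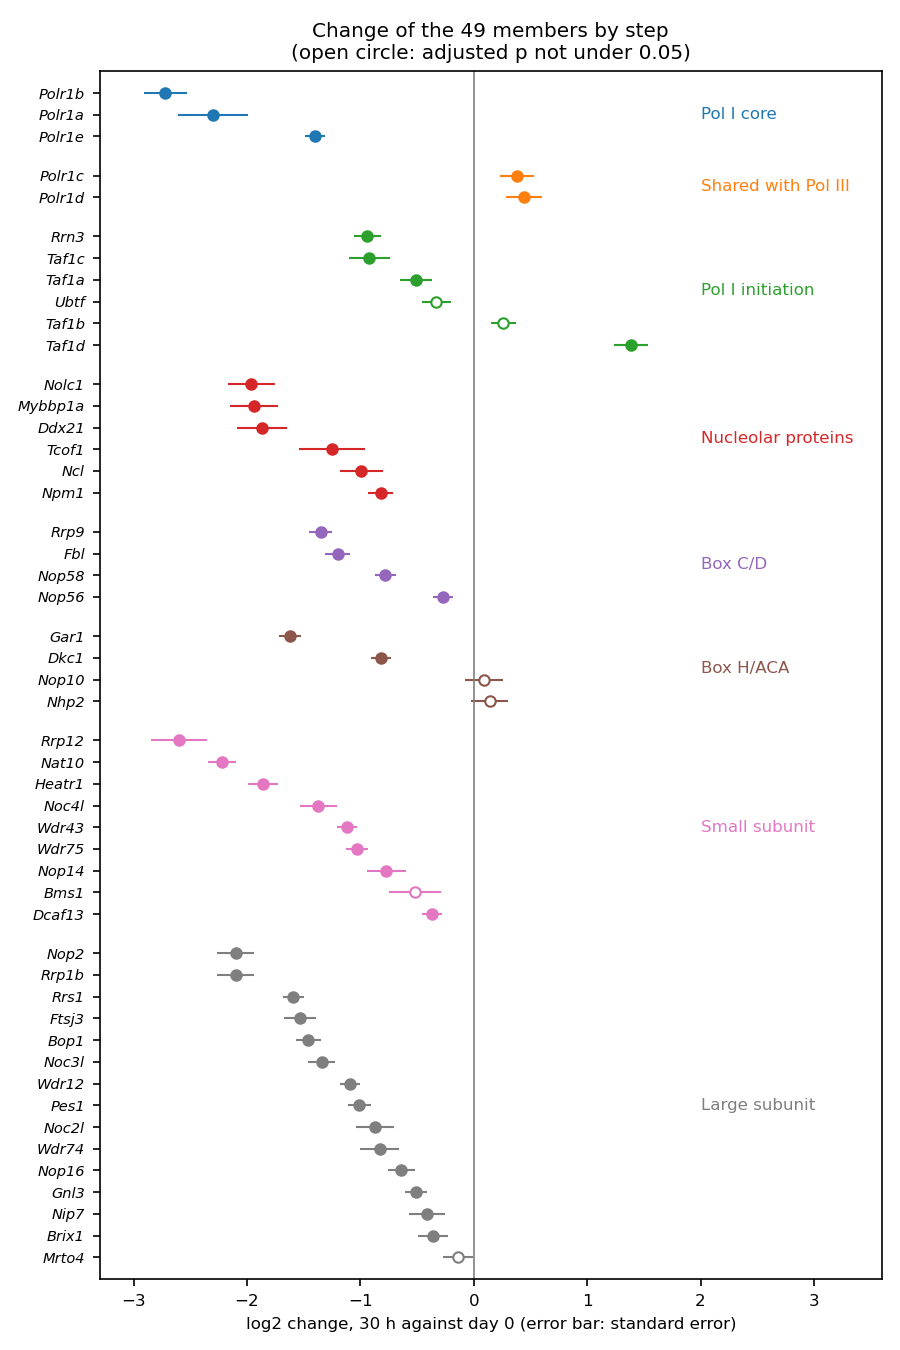
Log2 change of each of the 49 genes at 30 h against day 0 (x axis; bars are standard errors), ordered by step (colours); open circles mark an adjusted p that is not under 0.05. The points run from -2.72 for Polr1b to 1.39 for Taf1d, and 3 of them are filled and above 0, of which Polr1c and Polr1d turn below 0 when libraries are scaled by their totals or when the length trend is removed.

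Of the subunits that belong to RNA polymerase I alone, the list holds 3, Polr1a, Polr1b and Polr1e. All 3 fell, where 40.1% of all genes tested were lower, with a median log2 change of -2.30 for the 3. Further subunits of this kind outside the list, described with the other genes of the pathway, fell less or did not pass. Polr1b, the second largest subunit, which forms the active centre together with the largest, had the largest fall of all 49 genes. It had 31.4, 28.6 and 18.4 CPM in the 30 h libraries, against 173, 168 and 178 CPM at day 0. All 30 h libraries were far below day 0, and replicate 3 was the lowest. The gene (ENSMUSG00000027395, GRCm38 chromosome 2, 129100995 to 129126594, plus strand) was 6.61-fold lower, a log2 change of -2.72 ± 0.19 (SE) with an adjusted p of 8.90e-06.

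Polr1a, the largest catalytic subunit (chromosome 6, 71909053 to 71984935, plus strand), had 49.6, 38.6 and 18.7 CPM at 30 h, against 169, 184 and 176 CPM at day 0. The groups were again far apart, with a wide spread at 30 h in which replicate 3 was lowest, and the log2 change was -2.30 ± 0.31 (SE; adjusted p = 0.000249). Polr1e, the PAF53 subunit, had 24.6, 22.8 and 25.0 CPM at 30 h and 65.7, 62.7 and 62.6 CPM at day 0. Here the 30 h replicates lay close together, and the log2 change was -1.40 ± 0.09 (SE; adjusted p = 6.49e-06).

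Polr1c and Polr1d, which form the assembly platform of both polymerase I and polymerase III, were not lower. Polr1c (chromosome 17, 46243920 to 46248054, minus strand) had 205, 199 and 284 CPM at 30 h, against 182, 170 and 175 CPM at day 0. Polr1d (chromosome 5, 147077050 to 147111597, plus strand) had 152, 164 and 230 CPM at 30 h, against 136, 126 and 140 CPM at day 0. For both, every 30 h library was above every day 0 library, and 30 h replicate 3 was by far the highest. The log2 changes were 0.38 ± 0.15 for Polr1c (SE; adjusted p = 0.0440) and 0.44 ± 0.16 for Polr1d (SE; adjusted p = 0.0369). These rises were small and depended on the setting. They were -0.11 and -0.06 with scaling by library totals only, under which the median of all genes was -0.58, and -0.11 and -0.03 with the length trend removed, where that median was -0.26. Without 30 h replicate 3 they were 0.20 and 0.24 and were still called, and without any 1 of the day 0 replicates neither was called, with adjusted p from 0.0811 to 0.141.

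Per kilobase of exon, Polr1b had 29.8 and Polr1c 77.2 CPM at day 0. At 30 h the same measure was 4.50 for Polr1b and 101 for Polr1c.

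The factors that bring polymerase I to the rRNA promoter were mixed, with 3 lower, 1 higher and 2 not called of 6 and a median log2 change of -0.42. Across all genes tested 40.1% were lower and 34.4% higher, so the count of lower factors is near that share. Rrn3 (TIF-IA), which links the polymerase to the promoter-bound factors and is a known point of growth control, had 81.3, 72.2 and 61.1 CPM at 30 h, against 137, 133 and 143 CPM at day 0. It fell in every 30 h library relative to every day 0 library, by a log2 change of -0.94 ± 0.12 (SE; adjusted p = 0.000200). Ubtf, the HMG-box protein that coats active rRNA genes, was the most abundant of these factors per kilobase of exon, with 35.8 CPM at 30 h and 44.9 CPM at day 0. Its libraries had 268, 242 and 193 CPM at 30 h, against 273, 307 and 303 CPM at day 0. The 30 h values lay just below those of day 0, and the log2 change of -0.33 ± 0.13 (SE) did not pass (adjusted p = 0.0544).

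Taf1a to Taf1d encode the TBP-associated factors of selectivity factor 1 (SL1, TIF-IB in mouse), the complex that recognises the core promoter. They did not move together. Taf1d (ENSMUSG00000031939, chromosome 9, 15306214 to 15316991, plus strand) had 64.3, 73.7 and 95.7 CPM at 30 h, against 28.3, 29.2 and 31.4 CPM at day 0. All 30 h libraries were well above day 0, with replicate 3 the highest. Taf1d was 2.63-fold higher, a log2 change of 1.39 ± 0.15 (SE; adjusted p = 8.85e-05), and it was the only one of the 49 genes called higher in each of the 20 fits made, where its log2 change ran from 0.78 to 1.58.

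Taf1c had 17.3, 15.7 and 10.2 CPM at 30 h, against 27.4, 27.3 and 27.4 CPM at day 0, a log2 change of -0.92 ± 0.18 (SE; adjusted p = 0.00216). The groups were apart, and the day 0 values were nearly equal. Taf1c was called lower in 18 of the 20 fits made, with log2 changes from -1.41 to -0.23. Of the exon bases of Taf1c, 16.7% are shared with Dnaaf1 on the other strand, which had at most 1 count in a 30 h library and between 5 and 8 at day 0. Taf1a also fell, with 5.32, 5.96 and 5.79 CPM at 30 h and 7.09, 8.28 and 8.85 CPM at day 0 (log2 change -0.51 ± 0.14, SE; adjusted p = 0.0116; 0.0501 without day 0 replicate 3). Taf1b had 35.2, 32.0 and 37.9 CPM at 30 h, against 28.1, 28.3 and 31.4 CPM at day 0. The 30 h values were slightly above those of day 0, and the log2 change of 0.26 ± 0.11 (SE) did not pass (adjusted p = 0.0585).

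The E-box CACGTG, which reads the same on both strands, is a known binding sequence of Myc with its partner Max, and Myc is a known activator of ribosome biogenesis genes. A RefSeq promoter window on GRCm38.p6, from 250 bases before to 50 bases after the start, was at hand for 42 of the 49 genes. The 7 others were Rrs1, Tcof1, Fbl, Bop1, Npm1, Rrp12 and Dcaf13. The letters CACGTG were present for 5 of the 42, or 11.9%, namely Rrn3, Nop2, Pes1, Wdr43 and Mybbp1a. The share was 11.3% of the 11775 tested genes with a window and 8.09% of all 27025 genes with one. Within 100 bases before the start and 50 after it, the same 5 genes made 11.9%, against 7.21% of the tested genes with a window. All 5 were lower at 30 h, as were 40 of all 49 genes, and a link between the letters and the fall was not tested. In Pes1, Wdr43 and Mybbp1a the letters begin after the start, by 2, 17 and 40 bases. A match describes letters only, and its absence says only that these letters are not in the window. The 250 bases upstream of 3 genes are shown 5′ to 3′ on the plus strand, with CACGTG in capitals: Rrn3 because it holds the letters 2 times, Nop2 because it holds them close to the start and was among the largest falls, and Taf1d because it was the clearest rise.
Rrn3, chr16:13780449-13780698: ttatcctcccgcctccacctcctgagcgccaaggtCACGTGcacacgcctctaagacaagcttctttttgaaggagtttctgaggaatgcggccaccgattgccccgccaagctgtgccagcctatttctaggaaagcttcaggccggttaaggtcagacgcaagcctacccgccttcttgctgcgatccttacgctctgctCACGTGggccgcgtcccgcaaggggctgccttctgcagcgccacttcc
Nop2, chr6:125131633-125131882: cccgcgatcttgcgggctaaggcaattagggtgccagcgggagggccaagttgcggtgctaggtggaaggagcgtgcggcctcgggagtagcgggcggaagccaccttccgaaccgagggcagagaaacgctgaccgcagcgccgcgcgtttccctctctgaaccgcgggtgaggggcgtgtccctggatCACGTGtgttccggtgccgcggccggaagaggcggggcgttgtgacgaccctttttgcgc
Taf1d, chr9:15305964-15306213: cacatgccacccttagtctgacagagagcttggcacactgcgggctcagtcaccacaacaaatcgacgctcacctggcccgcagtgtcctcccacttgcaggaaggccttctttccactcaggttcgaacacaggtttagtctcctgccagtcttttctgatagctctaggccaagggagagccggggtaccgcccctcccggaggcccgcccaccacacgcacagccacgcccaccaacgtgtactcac
In Rrn3 the letters start 215 and 48 bases before the transcription start, and in Nop2 60 bases before it. The Taf1d stretch does not hold them. The G and C content of these stretches was 59.6% for Rrn3, 67.6% for Nop2 and 60.4% for Taf1d.

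The 6 nucleolar proteins tied to rRNA gene transcription or nucleolar structure all fell, with a median log2 change of -1.56. Among all genes tested the share called lower was 40.1%. Nolc1 (Nopp140), a chaperone of snoRNPs, fell most, with 126, 99.9 and 67.3 CPM at 30 h and 350, 407 and 385 CPM at day 0 (log2 change -1.96 ± 0.21, SE; adjusted p = 8.15e-05). Mybbp1a, a nucleolar protein that acts in rRNA synthesis and processing, changed by -1.94, and the RNA helicase Ddx21 by -1.87 on the log2 scale. Tcof1 (treacle), a nucleolar scaffold for polymerase I and Ubtf, had 62.1, 51.3 and 25.3 CPM at 30 h, against 95.0, 125 and 111 CPM at day 0. Its groups were apart, but both were spread widely, and the log2 change was -1.25 ± 0.29 (SE; adjusted p = 0.00504).

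Nucleolin (Ncl), which binds nascent pre-rRNA, and nucleophosmin (Npm1), the main protein of the outer nucleolar layer, held the most counts of the 49 genes at day 0. Ncl had 1064, 828 and 613 CPM at 30 h, against 1584, 1665 and 1730 CPM at day 0 (log2 change -0.99 ± 0.19, SE; adjusted p = 0.00162). Npm1 had 544, 551 and 662 CPM at 30 h, against 1034, 991 and 1067 CPM at day 0 (log2 change -0.82 ± 0.11, SE; adjusted p = 0.000237). Both were lower in every 30 h library, but replicate 3 was the lowest 30 h library for Ncl and the highest for Npm1. Per kilobase of exon Npm1 was the most abundant of the 49 genes at day 0, with 220 CPM at 30 h and 387 CPM at day 0; at 30 h Nhp2 was above it, with 385 CPM at 30 h and 348 CPM at day 0. Npm1 has 7 pseudogenes of at least 90% identity over at least 300 bases, which together held 175 to 259 counts at 30 h and 747 to 810 at day 0, beside 9257 to 11030 and 34366 to 36614 counts in Npm1 itself. The sources used here do not say how reads of such copies were assigned.

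**Figure D2:**
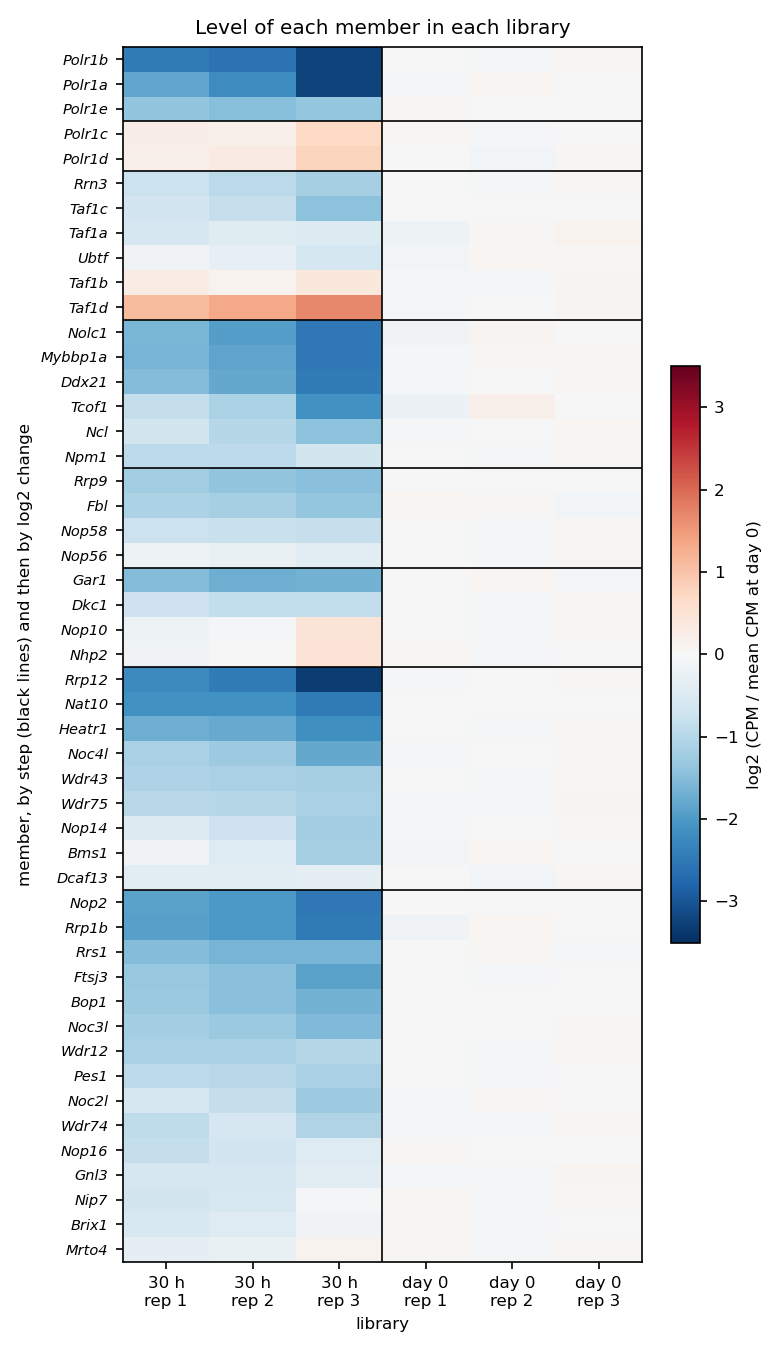
Level of each of the 49 genes (rows, by step and then by change) in each of the 6 libraries (columns), as log2 of its TMM-scaled CPM over its mean at day 0; blue is lower and red higher. The 3 day 0 columns are nearly uniform, and the 30 h columns are blue in most rows, with replicate 3 the darkest in many of them. All 30 h columns are on the red side for Taf1d and, only faintly, for Polr1c, Polr1d and Taf1b. These last 3 turn below 0 when libraries are scaled by their totals. For Nop10 and Nhp2 replicate 3 is pale red.

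The box C/D snoRNPs guide 2′-O-methylation of rRNA and, in the case of U3, its cleavage. All 4 of their proteins on the list fell, where 40.1% of all genes tested were lower, with a median log2 change of -0.99 for the 4. Rrp9, the protein specific to the U3 particle, had the largest fall and the highest day 0 level per kilobase of exon, with 64.5, 57.8 and 54.7 CPM at 30 h and 151, 150 and 151 CPM at day 0 (log2 change -1.35 ± 0.10, SE; adjusted p = 9.58e-06). Fibrillarin (Fbl), the methyltransferase of these particles, had 15.1, 14.6 and 12.8 CPM at 30 h, against 33.9, 33.4 and 30.4 CPM at day 0 (log2 change -1.20 ± 0.11, SE; adjusted p = 3.33e-05). The replicates of both genes lay close together within each group. The paired core proteins Nop58 and Nop56 fell less. Nop58 had 217, 216 and 209 CPM at 30 h and 372, 354 and 378 CPM at day 0 (log2 change -0.78 ± 0.09, SE; adjusted p = 8.37e-05). Nop56 had 170, 161 and 149 CPM at 30 h and 193, 187 and 199 CPM at day 0, groups that are apart by little (log2 change -0.27 ± 0.09, SE; adjusted p = 0.0295), and it was not called in 4 of the 6 fits that left out 1 library (adjusted p from 0.0609 to 0.101 in those).

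The box H/ACA snoRNPs guide pseudouridylation, and their 4 proteins were split, with 2 lower, 2 not called and a median log2 change of -0.36. That count is near the share of all genes tested, of which 40.1% were lower. Gar1 fell in all 30 h libraries, with 50, 43.7 and 44.7 CPM at 30 h and 142, 148 and 137 CPM at day 0 (log2 change -1.62 ± 0.10, SE; adjusted p = 4.21e-06). Dyskerin (Dkc1), the pseudouridine synthase, had 130, 119 and 119 CPM at 30 h and 212, 210 and 227 CPM at day 0 (log2 change -0.82 ± 0.09, SE; adjusted p = 8.85e-05). Nhp2 had 364, 401 and 557 CPM at 30 h, against 413, 381 and 402 CPM at day 0, and its log2 change of 0.14 ± 0.16 (SE) did not pass (adjusted p = 0.433). Nop10 had 161, 173 and 251 CPM at 30 h, against 186, 174 and 190 CPM at day 0, and its log2 change of 0.09 ± 0.17 (SE) did not pass either (adjusted p = 0.642). The groups of both overlapped, with 30 h replicate 3 above and at least 1 other 30 h replicate below all day 0 libraries. Without that replicate the changes were -0.05 for Nhp2 and -0.13 for Nop10, and with the length trend removed they were -0.61 (adjusted p = 0.000295) and -0.59 (adjusted p = 0.000510). Under the length trend alternative all 4 were called lower.

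Of the 9 proteins that process the small subunit, 8 fell and 1 was not called, with a median log2 change of -1.12. Among all genes tested the share called lower was 40.1%. Rrp12, which in yeast serves late maturation and export, had 35.0, 30.0 and 16.4 CPM at 30 h and 161, 163 and 170 CPM at day 0 (log2 change -2.60 ± 0.25, SE; adjusted p = 4.36e-05; chromosome 19, 41862851 to 41896173, minus strand). Nat10, which acetylates cytidines of 18S rRNA, had 46.1, 46.3 and 36.5 CPM at 30 h and 200, 203 and 199 CPM at day 0 (log2 change -2.22 ± 0.12, SE; adjusted p = 2.77e-06). Both groups were far apart in each case, and replicate 3 was the lowest at 30 h.

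Heatr1, Wdr43 and Wdr75 are parts of the early particle that joins the nascent precursor, known as UTP-A in yeast, and all fell. Heatr1 changed by -1.86, Wdr43 by -1.12 and Wdr75 by -1.03 on the log2 scale. Noc4l, which had the highest day 0 level of the group per kilobase of exon, had 67.2, 61.2 and 43.1 CPM at 30 h and 144, 149 and 151 CPM at day 0 (log2 change -1.37 ± 0.16, SE; adjusted p = 0.000125). Its partner in yeast, Nop14, changed by -0.77. Dcaf13 (Sof1 in yeast) fell least, with 82.1, 83.4 and 84.2 CPM at 30 h and 109, 101 and 112 CPM at day 0 (log2 change -0.37 ± 0.09, SE; adjusted p = 0.00648), and with the length trend removed it was not called (adjusted p = 0.151). The GTPase Bms1 had 166, 134 and 81.4 CPM at 30 h, against 170, 191 and 185 CPM at day 0. Its 30 h libraries all lay below day 0 but were spread widely, and the log2 change of -0.52 ± 0.23 (SE) did not pass (adjusted p = 0.0737; -0.27 and 0.0187 without 30 h replicate 3, and -0.70 and 0.00752 without 30 h replicate 1).

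The large subunit was represented by 15 proteins, of which 14 fell and 1 was not called, with a median log2 change of -1.01. Among all genes tested the share called lower was 40.1%. Rrp1b, a nucleolar protein of large subunit assembly, had 24.3, 22.5 and 16.2 CPM at 30 h and 83.5, 95.6 and 92.1 CPM at day 0 (log2 change -2.10 ± 0.16, SE; adjusted p = 1.25e-05). Nop2, a cytosine methyltransferase of 28S rRNA (chromosome 6, 125131909 to 125144753, plus strand), had 68.7, 63.2 and 44.8 CPM at 30 h and 249, 256 and 254 CPM at day 0 (log2 change -2.10 ± 0.16, SE; adjusted p = 1.33e-05). Both were 4.29-fold to 4.30-fold lower, with groups far apart.

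The proteins Pes1, Bop1 and Wdr12 form the PeBoW complex, which is needed to process the internal spacer before 28S rRNA. All fell: Bop1 changed by -1.46 ± 0.11, Wdr12 by -1.09 ± 0.09 and Pes1 by -1.01 ± 0.10 on the log2 scale (SE; adjusted p from 1.35e-05 to 4.09e-05). Rrs1, which in yeast helps to bring in the 5S particle, changed by -1.59, and Ftsj3, the counterpart of the yeast methyltransferase Spb1, by -1.53. Noc3l changed by -1.34. Noc2l had the highest day 0 level of the group per kilobase of exon, with 204, 169 and 127 CPM at 30 h and 298, 312 and 303 CPM at day 0 (log2 change -0.87 ± 0.17, SE; adjusted p = 0.00171). Per kilobase of the longest annotated transcript, Mrto4 was above it at day 0, with 125 CPM against 108 CPM for Noc2l. Of the exon bases of Noc2l, 20.9% are shared with Samd11 on the other strand, which had 703, 532 and 408 counts at 30 h and 41, 26 and 26 at day 0.

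Smaller falls were seen for Wdr74, the least abundant of the 49 genes per kilobase of exon (3.11, 3.87 and 2.77 CPM at 30 h and 5.68, 5.59 and 6.12 CPM at day 0; log2 change -0.83), for Nop16 (-0.64) and for nucleostemin (Gnl3; -0.51), a nucleolar GTPase known from stem and progenitor cells. Nip7 changed by -0.41 (adjusted p = 0.0421) and Brix1 by -0.36 (adjusted p = 0.0345). Both lost their call in 5 of the 6 fits that left out 1 library, down to -0.24 and -0.21 without 30 h replicate 1. Mrto4, which holds the site of the ribosomal stalk during assembly, had 121, 127 and 166 CPM at 30 h, against 155, 146 and 156 CPM at day 0. The groups overlapped through 30 h replicate 3, and the log2 change of -0.14 ± 0.13 (SE) did not pass (adjusted p = 0.365). Without that replicate it was -0.29 (adjusted p = 0.00122).

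Partners of one complex thus differed in their change, and ratios of their counts within a library show this without any scaling. The 5 pairs given were chosen after their values were seen and are a description with no test. The ratio of Polr1b to Polr1c was 0.153, 0.144 and 0.0649 at 30 h, against 0.951, 0.984 and 1.01 at day 0, so that the geometric means differed 8.73-fold. For Gar1 to Nhp2 it was 0.137, 0.109 and 0.0803 at 30 h and 0.343, 0.390 and 0.341 at day 0, a 3.36-fold difference. None of these groups overlapped.

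For Fbl to Nop56 the ratio was 0.0885 ± 0.00217 at 30 h and 0.169 ± 0.0142 at day 0, and for Bop1 to Pes1 it was 0.962 ± 0.0456 at 30 h and 1.32 ± 0.00922 at day 0 (SD, n = 3 each). The ratio of Taf1d to Taf1c moved the other way, with 3.72, 4.69 and 9.39 at 30 h and 1.03, 1.07 and 1.14 at day 0. The longest annotated transcripts of Gar1 and Nhp2 are of similar length (1271 and 1042 bases), while those of Polr1b and Polr1c are not (3998 and 1314 bases). Those of Taf1d and Taf1c differ in G and C content (40.2% and 60.8%). With the GC trend removed the log2 change of Taf1d was 0.78, its smallest over all fits.

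**Figure D3:**
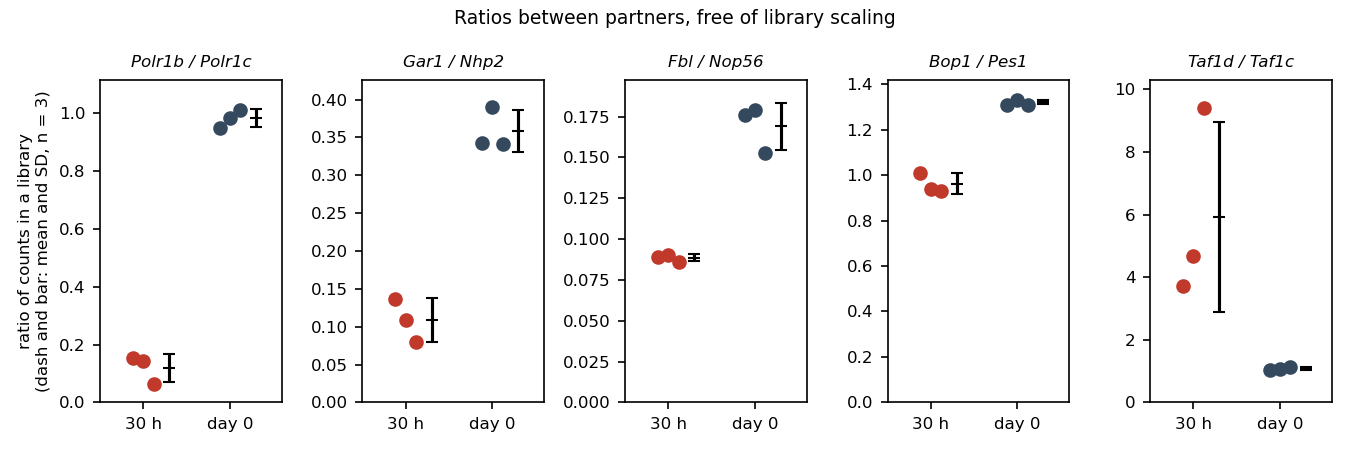
Ratio of the counts of 2 genes within each library (y axis, from 0) for 5 pairs of partners, with the 3 libraries at 30 h in red on the left and the 3 at day 0 in dark blue on the right of each panel; the dash and bar beside them are the mean and SD. In 4 panels the 30 h points lie below all day 0 points, and for Taf1d to Taf1c they lie above them.

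Changes went with transcript length. Over the 49 genes, the log2 change and the log2 length of the longest annotated transcript had a Pearson correlation of -0.36 and a Spearman correlation of -0.36, and over 16144 tested genes of -0.20 and -0.21. These are correlations across genes, which share libraries and are not independent replicates. The difference between 30 h replicate 3 and the mean of the other 30 h replicates had a Spearman correlation of -0.52 with length over the 49 genes and of -0.42 over all tested genes. Among the 30 h libraries, replicate 3 was the lowest for 32 of the 49 genes and the highest for 15.

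Of the 25 genes with a transcript of at most 3036 bases, the median, 19 were lower and 2 higher, with a median log2 change of -0.82. Of the 24 longer ones, 21 were lower and 1 higher, with a median of -1.19. Shares of all genes tested at or under and over this length were not counted. With each library's length trend removed, an alternative chosen after seeing the data, 42 of the 49 were lower, against 44.5% of all genes tested, and the median was -1.09. Of these, 39 had been lower without the correction. Scaled by totals alone, 44 of the 49 were lower, against 54.4% of all genes tested, with a median of -1.48 where that of all genes was -0.58. Over all 20 fits, 31 of the 49 genes were called lower in every one, and 42 had a change below 0 in every one. The same counts were not made over all genes tested, so whether this stability sets the 49 genes apart was not tested. What part RNA quality has in the trend with length was not tested.

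**Figure D4:**
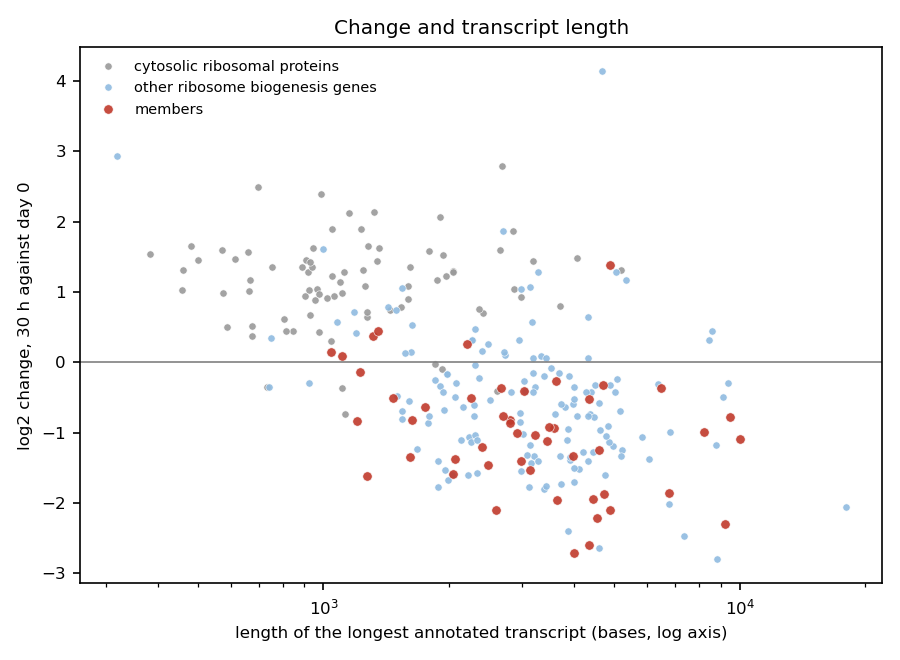
Log2 change at 30 h against day 0 (y axis) by the length of the longest annotated transcript in bases (x axis, log scale) for the 49 genes (red), other ribosome biogenesis genes (blue) and cytosolic ribosomal proteins (grey). The red points lie mostly below 0, and the grey points, of which most are at shorter lengths, lie mostly above 0.

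A further 150 genes of the pathway, listed by group, were examined in the same fit, and 143 had enough counts. Of these, 92 were lower and 23 higher, with a median log2 change of -0.60, where 40.1% of all genes tested were lower and 34.4% higher, with a median of -0.09. Restricted to proteins of rRNA synthesis and assembly, 83 of 121 were lower and 17 higher, with a median of -0.68. The polymerase I subunits outside the list differed among themselves. Cd3eap, the partner of Polr1e, had 20.1, 19.5 and 17.5 CPM at 30 h and 39.9, 40.3 and 39.7 CPM at day 0 (log2 change -1.07; adjusted p = 3.41e-05). Znrd1 changed by -0.35 (adjusted p = 0.0168), and Twistnb, at 0.06, did not pass (adjusted p = 0.627). Ttf1, which ends polymerase I transcription, was higher, with 38.9, 36.5 and 32.1 CPM at 30 h and 15.4, 16.0 and 16.4 CPM at day 0 (log2 change 1.17; adjusted p = 3.51e-05).

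Of 45 small subunit proteins outside the list, 34 were lower and 6 higher, with Utp20 at -2.80 and Emg1, a methyltransferase of 18S rRNA, at 0.65. For the large subunit 35 of 50 were lower and 4 higher, with Urb1 at -2.47 and Nsa2 at 1.87. Of 9 factors that assemble snoRNPs, 7 were lower and 2 higher, with Znhit6 at -1.58 and Znhit3 at 1.61. Of 11 subunits specific to polymerase III, 6 were lower and 2 higher, with Polr3d at -1.61 and Polr3gl at 0.78. In the nuclear exosome, which trims rRNA precursors, 5 of 13 tested members were lower and 4 higher, with Exosc1 at -0.77 and C1d at 1.04. Set beside the 40.1% lower and 34.4% higher among all genes tested, the exosome counts are near those shares, and no test of the other groups against them was made. All of these named changes passed the test.

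Among 10 regulators of rRNA synthesis, 3 were lower and 3 higher, with a median log2 change of 0.01. Across all genes tested 40.1% were lower and 34.4% higher, so these counts do not set the list apart. Myc had 101, 93.0 and 71.0 CPM at 30 h, against 186, 195 and 190 CPM at day 0 (log2 change -1.11 ± 0.14, SE; adjusted p = 0.000163). Mxd1, which competes with Myc for Max, had 230, 191 and 135 CPM at 30 h, against 10.2, 11.0 and 10.6 CPM at day 0 (log2 change 4.14 ± 0.21, SE; adjusted p = 2.01e-06). Myc was thus lower and Mxd1 higher in every 30 h library. Kdm2b, a histone demethylase, had the largest fall of the group (log2 change -1.33). Max was lower too (-0.42), and Mxi1 (1.28) and Sirt7 (1.29) were higher. Mnt, Kdm2a, Baz2a and Phf8 did not pass. Of the 7 RNAs listed, only Rpph1, the RNA of RNase P, could be tested, and it was scarce, with 0.838, 1.49 and 1.38 CPM at 30 h and 0.226, 0.173 and 0.0606 CPM at day 0 (log2 change 2.94; adjusted p = 0.000461). Rmrp and Rnu3a, the RNAs of RNase MRP and of U3, had 0 counts in all libraries, and Snord118 and Snord13 had too few counts to test.

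Cytosolic ribosomal proteins, the building blocks that the machinery assembles, went the other way. This list was added after the data had been seen. Of its 80 tested genes, 72 were higher and 4 lower at 30 h, against 34.4% higher and 40.1% lower among all genes tested. The median log2 change was 1.17, against -0.99 for the 49 genes and -0.09 for all genes tested. They took 4.86%, 5.19% and 6.82% of all counts at 30 h and 3.22%, 3.01% and 3.20% at day 0, so every 30 h library was above every day 0 library and replicate 3 was the highest. Their transcripts are short, with a median longest transcript of 1094 bases, against 3036 for the 49 genes and 3168 for all genes tested. With the length trend removed 45 were higher and 14 lower, with a median of 0.43, against 30.3% higher and 44.5% lower among all genes tested. Scaled by totals alone 58 were higher and 6 lower, with a median of 0.68, against 22.3% higher and 54.4% lower among all genes tested. Levels within this list differed widely, with a day 0 mean of 3.98 CPM for Rpl19 and of 462 CPM for Rpl22. The sources used here do not say how reads with several matches were counted. Whether reads of these genes were missed, and so left out of the shares, was not tested.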

How the data were processed

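RNA-seq gene counts of 6 mouse fetal liver libraries were analysed, 3 at 30 h and 3 at day 0, grouped by the labels. The deposited files hold the authors' whole-number counts per Ensembl gene ID, 1 file per library. Per the submitters' processing notes, the tools were cutadapt 1.13, STAR, HTSeq 0.6.1p1 and DESeq2, on build mm10; no settings are listed. Strand setting, annotation release and the treatment of reads with several matches are not given in the sources used here. Overlapping genes on opposite strands and near-identical copies may not be separated. Of 54232 IDs, 54165 were found in GENCODE M21, and the other 67 held at most 0.00474% of a library.

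Genes kept by filterByExpr (16150) were fitted with edgeR 4.0.16 (R 4.3.3): TMM scaling, with factors of 0.84, 0.87 and 0.82 at 30 h and 1.18, 1.18 and 1.19 at day 0, a robust quasi-likelihood F test of 30 h against day 0 with no covariate, and Benjamini-Hochberg adjustment over all genes tested with a threshold of 0.05. Fold changes come from that fit. Standard errors were derived from it, as the absolute log2 change divided by the square root of the F statistic. The fitting steps were run on simulated counts with few changed genes, the same spread in all libraries and no length trend. Those runs do not cover the unequal spread, the many changed genes and the length trend of these data. CPM are per 1000000 TMM-scaled counts. Values per kilobase use the union of annotated exons. Pseudogenes were matched with minimap2 2.31. Promoter windows are RefSeq's on GRCm38.p6.

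Members and lists were chosen with earlier results of these data known. Every member is named. Values in every library are given at least for the largest fall, the smallest fall or any rise, and the highest day 0 level per length in each step, and for each member that rose or did not pass. Of the other pathway genes, the largest fall and rise of each group, Myc, the polymerase I subunits and the RNAs are named.

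Replicate numbers are shared between the groups, but the deviations of same-numbered libraries correlated at -0.105, 0.105 and -0.029, so the numbers were not taken to pair them. Alternatives were DESeq2 size factors, scaling by totals, upper-quartile scaling, globin genes left out, no filter, a mean of at least 1 CPM, DESeq2 1.42.0, limma-trend (limma 3.58.1), a 1.5-fold test threshold, a replicate block, removal of GC trends and leaving out each library in turn. Removal of length trends, alone or with GC trends, was chosen after seeing the data.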

Additional observations from a re-analysis of the deposited data

How the results depend on the processing

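The number of the 49 genes lower at 30 h, 40 by the reported test, ran from 32 against a 1.5-fold change to 44 with totals scaling. Of all genes tested, 40.1% were lower and 34.4% higher by the reported test. With totals scaling, 54.4% were lower and 22.3% higher. No such share is given for the 1.5-fold change, the replicate block and most fits that left out 1 library. The number higher, 3, fell to 1 with totals scaling, no filter on low counts, upper-quartile scaling, a 1.5-fold change, the length trend removed, and the GC and length trends removed together. When 1 library was left out it ran from 1 to 3, with 1 for each day 0 library, and the number lower ran from 36 to 43. With the replicate number as a block (replicate block) 2 were higher and 40 lower; the numbers do not pair the libraries. Of the other ribosome biogenesis genes, 23 were higher, and 11 were with totals scaling and against a 1.5-fold change.

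Of 931 values of single genes under the alternatives, 844 kept their direction and side of the threshold, 47 lost their call, 20 gained one and 20 changed sign. Those that changed sign are given as log2 changes, and the cause was not tested. Scaled by totals alone, which lowers all genes, Polr1c was -0.11, Polr1d -0.06, Taf1b -0.23, Nhp2 -0.35 and Nop10 -0.40. With the length trend removed Polr1c was -0.11, Polr1d -0.03, Nhp2 -0.61 and Nop10 -0.59, and with GC and length trends removed Polr1c was -0.15, Polr1d -0.13, Taf1b -0.25, Nhp2 -0.62 and Nop10 -0.92. Removing the GC trend gave -0.10 for Nop10 and 0.06 for Mrto4, and upper-quartile scaling -0.02 for Nop10. With 1 library left out Nhp2 ran from -0.05 (without 30 h replicate 3) to 0.33, Nop10 from -0.13 (without 30 h replicate 3) to 0.28 and Mrto4 from -0.29 to 0.01 (without 30 h replicate 1).

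The limits are these. With 3 libraries a group and a spread of 20.5% at 30 h, changes of the size of those in Polr1c, Nop56, Nip7 or Brix1 sit near the threshold. Counts are relative within a library, so a fall in RNA per cell cannot be seen. Culture, DMSO and time differ together between the groups. The mix of cell types differed between them as well. Transcript levels say nothing of protein or of rRNA synthesis. Where strand was not used in counting, reads of overlapping genes on the other strand would be included.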

Other observations

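Proteins of the mitochondrial ribosome, which is built outside the nucleolus, were compared in the same fit as a list added after the data had been seen. Of 77 tested, 34 were higher and 14 lower at 30 h, with a median log2 change of 0.20, against 34.4% higher and 40.1% lower among all genes tested. They took 0.700% ± 0.105 of all counts at 30 h and 0.742% ± 0.0221 at day 0 (SD, n = 3 each), and the groups overlapped. With the length trend removed 21 were higher and 30 lower, with a median of -0.04, against 30.3% higher and 44.5% lower among all genes tested.

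The 5 tested genes whose log2 CPM followed the mean log2 CPM of the 49 genes most closely over the 6 libraries were Riox1 (Pearson r = 0.9999), Hells (0.9998), Dhx33 (0.9997), Pwp2 (0.9996) and Ubash3a (0.9996). That mean was 6.30, 6.22 and 6.05 at 30 h and 7.19, 7.20 and 7.24 at day 0. The 6 libraries fall into 2 separate groups, so the values describe a shared difference between groups more than a shared course. Pwp2, a small subunit processing protein, had 34.8, 30.0 and 21.7 CPM at 30 h and 150, 148 and 158 CPM at day 0. Dhx33, an RNA helicase, had 23.1, 19.9 and 16.6 CPM at 30 h and 78.4, 77.2 and 81.2 CPM at day 0. Hells, a chromatin remodeller, had 94.4, 91.5 and 84.9 CPM at 30 h and 139, 138 and 141 CPM at day 0.

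Many snoRNAs are encoded within introns of the genes described here. The IDs of those annotated within Taf1d, Nop56, Ncl, Nop58, Gnl3, Dkc1 and Wdr43 held at most 3 counts in any library, so the rise of Taf1d and the falls of the other hosts could not be set beside their snoRNAs.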
